A study of Drosophila melanogaster with 2 samples.

Results

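The nuclear genes of oxidative phosphorylation were examined for binding of abrupt (ab), a zinc-finger transcription factor with a BTB domain, in Drosophila melanogaster embryos. Members were the nuclear protein-coding genes whose symbol begins with ND-, UQCR-, COX and a digit, ATPsyn or Sdh, and 88 of 13945 protein-coding genes met that rule. They comprised 63 genes for subunits of the respiratory complexes, 24 duplicate genes with an L in the symbol and 1 assembly factor, Sdhaf3. By complex, 40 members belonged to complex I, 8 to complex II, 9 to complex III, 16 to complex IV and 15 to complex V. Chromatin came from the transgenic strain ab-GFP, which stably makes an ab-eGFP fusion protein with the tag at the C-terminus of ab, and was precipitated with an antibody to GFP. Whole embryos of mixed sex aged 0 to 24 hours gave 2 biological replicates in 1 group, so no contrast between conditions was possible. Whole organisms were used, so the cells in which a region was bound cannot be told apart, and no measurement of these genes' RNA was analysed here.

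Oxidative phosphorylation passes electrons from NADH and succinate through complexes I to IV of the inner mitochondrial membrane and uses the resulting proton gradient at complex V to make ATP. Most subunits are encoded in the nucleus, and their genes are active in nearly all cells. In Drosophila many of these genes have duplicates, a good part of which are expressed mainly in testis. A reproducible peak is a region that the authors kept as reproducible between replicates, and its signal is their own score against a control, on a scale that is not stated. A gene was counted with a peak when a summit, the position of highest enrichment, lay in its body or within 1 kb of it.

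The bases under the summits of 6 members are printed here because these peaks carry the counts that follow: the first 5 lay within 500 bp upstream of a start of the member, the last lay in an intron. Each runs 5′ to 3′ in the direction of the member, which is the minus strand for all 6, and covers up to 75 bases on either side of the pooled summit, trimmed where an untranslated region was annotated. They were read from the RefSeq assembly of dm6, at chrX:6679333-6679483, chr3R:11210105-11210246, chr2L:6062772-6062922, chr3L:21539448-21539590, chr2L:15751110-15751260 and chr2L:2197118-2197268. Capitals mark matches to the motifs searched: TATAAA, the letters of a TATA box, in ND-ASHI and ND-B17, TATCGATA, the DNA replication-related element (DRE), in SdhC, and CAGCTG, an E-box, in ND-51. The DRE in the SdhC stretch began 12 bases from the summit, and the other 3 matches began 46 to 56 bases from theirs. That summit lay 331 bp from the SdhC start and 67 bp from the start of Tctp on the opposite strand. The DRE therefore cannot be given to SdhC rather than Tctp.
ND-ASHI: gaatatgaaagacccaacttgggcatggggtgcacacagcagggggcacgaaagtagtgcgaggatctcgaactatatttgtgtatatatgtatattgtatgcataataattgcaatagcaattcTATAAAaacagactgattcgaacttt
SdhC: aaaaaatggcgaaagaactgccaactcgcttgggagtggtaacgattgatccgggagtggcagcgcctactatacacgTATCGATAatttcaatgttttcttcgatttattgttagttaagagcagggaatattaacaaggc
ND-51: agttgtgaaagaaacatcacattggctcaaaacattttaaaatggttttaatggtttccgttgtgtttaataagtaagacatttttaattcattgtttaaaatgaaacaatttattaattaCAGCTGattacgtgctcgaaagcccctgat
COX8: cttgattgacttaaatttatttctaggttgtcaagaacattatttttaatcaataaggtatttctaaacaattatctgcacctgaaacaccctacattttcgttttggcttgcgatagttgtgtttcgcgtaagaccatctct
ND-B17: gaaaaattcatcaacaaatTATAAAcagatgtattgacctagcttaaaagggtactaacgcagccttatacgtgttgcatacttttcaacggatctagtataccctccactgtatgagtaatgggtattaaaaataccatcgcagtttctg
COX7AL2: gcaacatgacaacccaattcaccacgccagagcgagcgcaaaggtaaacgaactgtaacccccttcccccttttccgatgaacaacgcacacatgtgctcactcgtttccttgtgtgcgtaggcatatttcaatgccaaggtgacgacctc

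Members carried reproducible ab peaks about as often as other genes. A peak was found at 12 of the 88 members, or 13.6% (95% Wilson interval 7.98 to 22.3%, counting error only), and at 13.2% of all protein-coding genes, which corresponds to 11.6 of 88. The 12 members were ND-ASHI, ND-MWFE, ND-B22, ND-B17, ND-24, ND-42 and ND-51 of complex I, SdhB and SdhC of complex II, and COX7AL2, COX8 and COX5A of complex IV. Within 500 bp of an own transcription start 9 members had a peak, or 10.2%, against 8.44% of protein-coding genes. Any region of the longer pooled list lay at 58 members, or 65.9%, against 63.4%. None of these shares was tested, and each lies close to its background.

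The share was set beside that of genes of like length. Members were short, with a median gene length of 1097 bp against 2166 bp over all protein-coding genes. Among genes of up to 1 kb, 3 of 37 members had a peak (8.11% against 4.74%), and among genes of over 1 kb up to 2 kb, 8 of 33 (24.2% against 9.16%). No member of over 2 kb up to 5 kb had one, 0 of 12 against 13.3%. Above 5 kb there was 1 of 6, COX7AL2, against 24.1%. These bands were chosen after seeing the data, hold few members and were not tested.

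**Figure D1:**
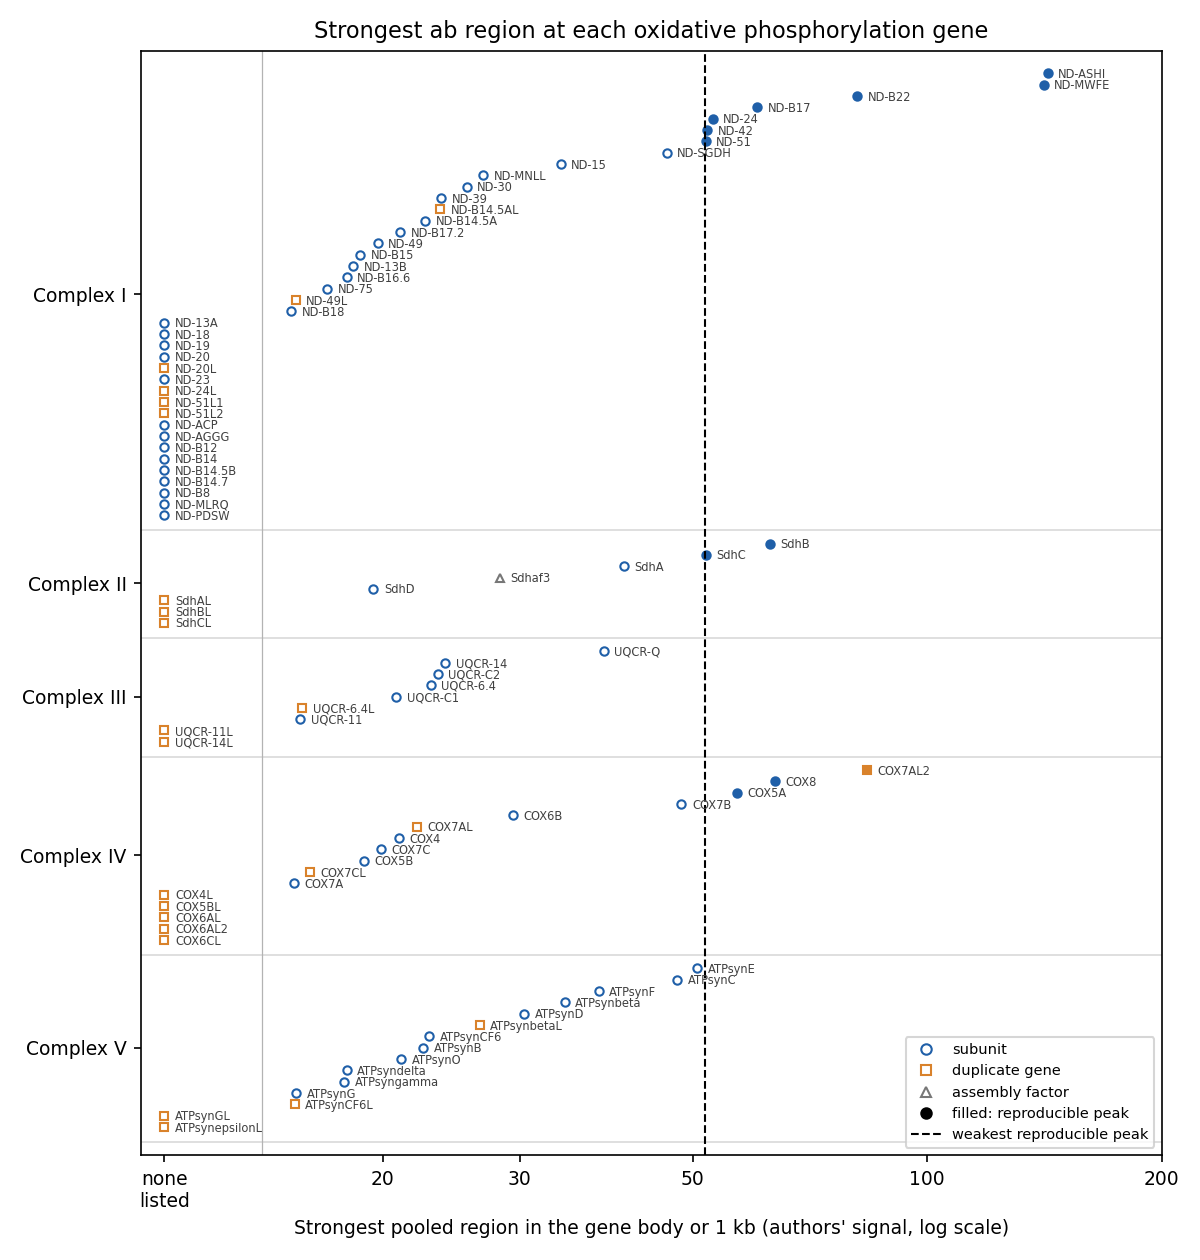
Signal of the strongest pooled region in the body or 1 kb of each of the 88 members (x axis, log scale), 1 row per member, sorted within complexes; filled symbols have a reproducible peak, and members at the left edge have no listed region. The 12 filled symbols stand at or above the dashed line at 51.8, and 14 complex I subunits stand at the left edge with 16 duplicate genes.

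Complex I, the NADH dehydrogenase, had peaks at 7 of its 40 members (17.5%, against 13.2% of protein-coding genes), where the background share corresponds to 5.29. ND-ASHI, an accessory subunit of the membrane arm, had the strongest peak of all members (X, 6679288 to 6679475), with a pooled signal of 142.8, 78.8 in replicate 1 and 68.2 in replicate 2. ND-MWFE, a small membrane-arm subunit needed for assembly in mammals, followed with 141.1 pooled (2R, 13158181 to 13158690), 86.7 in replicate 1 and 51.5 in replicate 2. These peaks ranked 192 and 200 among the 1664 reproducible peaks, well above the other members. ND-B22, also of the membrane arm, had 81.3 pooled (2L, 13368899 to 13369408), 36.4 in replicate 1 and 45.9 in replicate 2. ND-B17, of the same arm, had 60.5 pooled (2L, 15750930 to 15751439), 34.2 in replicate 1 and 27.8 in replicate 2. ND-42, another membrane-arm subunit, had 52.2 pooled (3R, 22027129 to 22027638), 22.4 in replicate 1 and 30.7 in replicate 2. Its peak was thus among the weakest of the reproducible list, which ends at a pooled signal of 51.8. At ND-ASHI, ND-MWFE, ND-B22 and ND-42 the summit lay nearer to the start of another gene. At ND-B17, ND-24 and ND-51 the own start was nearest.

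The module of complex I that oxidises NADH had peaks at 2 of its core subunit genes. ND-51, which by homology binds the flavin and NADH, had 52.0 pooled (2L, 6062592 to 6063101), 22.9 in replicate 1 and 27.6 in replicate 2. ND-24, its iron-sulphur neighbour, had 53.1 pooled (X, 17631844 to 17632353), 31.3 in replicate 1 and 19.7 in replicate 2. Both peaks stood near the end of the list, at ranks 1654 and 1588. The third large subunit of that module, ND-75, had 3 pooled regions, a region in replicate 2, none in replicate 1 and no reproducible peak. By contrast, 3 of the module's 6 members had no pooled region. In all 2 of 6 members of the NADH-oxidising module, 0 of 9 of the quinone-reducing module and 5 of 18 of the membrane arm had a peak, where the background share corresponds to 0.793, 1.19 and 2.38 members.

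Complex II, succinate dehydrogenase, had peaks at 2 of its 8 members (25%), where the background share corresponds to 1.06. Both were among its 4 subunit genes. SdhB, the iron-sulphur subunit, had 62.9 pooled (2R, 6809569 to 6810078), 28.6 in replicate 1 and 34.9 in replicate 2. SdhC, a membrane anchor, had 52.0 pooled (3R, 11209925 to 11210434), 17.1 in replicate 1 and 26.7 in replicate 2. SdhA, the flavoprotein, had a strongest pooled region of 40.8 and SdhD, the other anchor, of 19.5, both below the end of the reproducible list. The background share corresponds to 0.529 of 4 genes, so the 2 peaks rest on very few genes. Both summits lay nearer to the start of another gene, 58 bp from CG15237 at SdhB and 67 bp from Tctp at SdhC.

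Complex IV, cytochrome c oxidase, had peaks at 3 of 16 members, where the background share corresponds to 2.11. COX8 had 63.7 pooled (3L, 21539260 to 21539769), 41.5 in replicate 1 and 19.3 in replicate 2. COX5A had 57.0 pooled (3R, 11819332 to 11819841), 29.1 in replicate 1 and 23.8 in replicate 2. Both encode nuclear subunits that surround the catalytic core. COX7AL2, a duplicate related to COX7A, had 83.7 pooled (2L, 2196938 to 2197447), 28.5 in replicate 1 and 85.3 in replicate 2. It was the only duplicate gene among the 12, and its peak the only one of the 12 that lay over 500 bp from every start of a protein-coding gene. COX7A itself had a strongest pooled region of 15.4.

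Complexes III and V had no reproducible peak at any member. This was 0 of 9 for complex III, the cytochrome bc1 complex, and 0 of 15 for complex V, the ATP synthase, where the background share corresponds to 1.19 and 1.98 genes, so that counts of 0 are not far from it. Of the ATP synthase genes, ATPsynE came nearest to the reproducible list, which ends at a pooled signal of 51.8. ATPsynE, a membrane-sector subunit, had a pooled signal of 50.7 with a summit 56 bp upstream of its start, at rank 1728 of the pooled list, and its strongest replicate regions had 22.6 in replicate 1 and 26.1 in replicate 2. ATPsynC, which forms the rotating ring, had 47.8 pooled, 21.8 in replicate 1 and 23.4 in replicate 2. Pooled signals were farther below that end at ATPsynF (37.9), ATPsynbeta, the catalytic subunit (34.3), and ATPsynD (30.4). In complex III UQCR-Q was highest, with 38.5. Outside these complexes, COX7B (48.4), ND-SGDH (46.3), SdhA (40.8) and ND-15 (33.9) completed the 10 members with a pooled region of 30 or more and no reproducible peak. With or without a reproducible peak, 25% of members and 28.3% of protein-coding genes reached 30.

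Peaks and their absence are both set by the length of the authors' list, so the weaker regions were read as well. The 46 members with a pooled region and no reproducible peak had a median signal of 22.3. As assigned here, a pooled region was found at all 29 subunit genes of complexes II to V. The same was found at 20 of the 34 of complex I (58.8%), beside 63.4% of protein-coding genes, so that complex I lay near the background. The 14 without one included ND-20 and ND-23, core iron-sulphur subunits, and ND-18, ND-13A, ND-B8, ND-PDSW and ND-ACP, the acyl carrier protein. ND-MLRQ was also among them. It was counted with complex I but given to none of its modules, and both counts depend on that placement. The difference between the complexes was seen in the data and not tested. No region in any of the pooled and replicate lists was found at 8 members. They were ATPsynGL, COX4L, COX6CL, ND-24L, SdhAL and SdhCL among the duplicates, and ND-AGGG and ND-PDSW among the subunits. The matching share over all protein-coding genes is not given here. In replicate 1 alone, 70.5% of members and 73.1% of protein-coding genes had a region. In replicate 2 alone the shares were 77.3% and 69.8%.

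Duplicate genes stood below the subunit genes. A peak was found at 1 of 24 duplicates (4.17%) and at 11 of 63 subunit genes (17.5%), beside the 13.2% of all protein-coding genes. A pooled region was found at 8 of 24 duplicates (33.3%) and at 49 of 63 subunit genes (77.8%), beside 63.4%. At a pooled signal of 30 or more the shares were 4.17% of duplicates, 33.3% of subunit genes and 28.3% of protein-coding genes. Duplicates were also shorter, with a median length of 744 bp against 1178 bp for subunit genes. Of all protein-coding genes, 4.74% of those up to 1 kb and 9.16% of those over 1 kb up to 2 kb had a peak. The part of length in the difference was not tested.

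**Figure D2:**
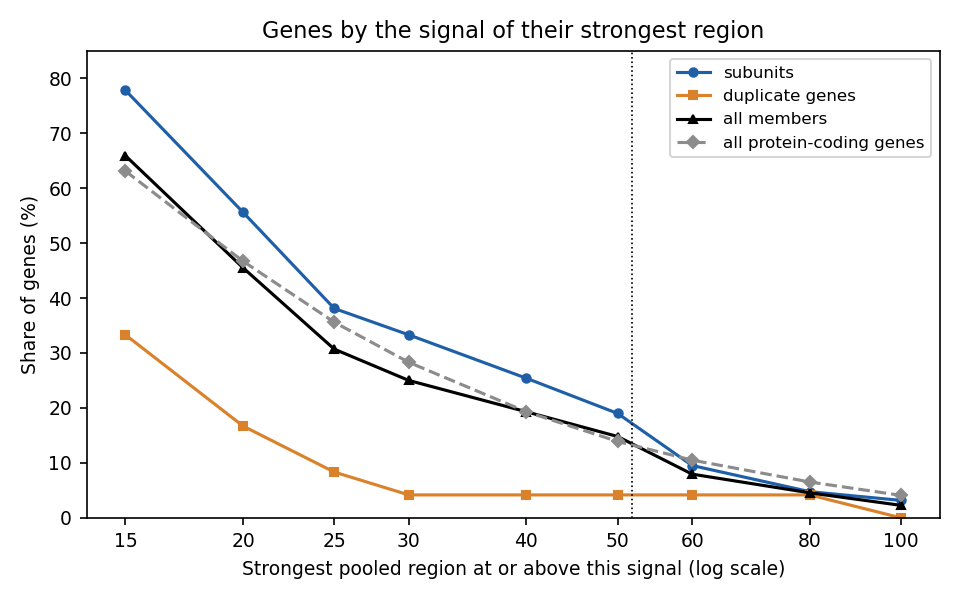
Share of genes (y axis, %) whose strongest pooled region reaches a given signal (x axis, log scale) for subunit genes, duplicate genes, all members and all protein-coding genes; the dotted line marks the weakest reproducible peak. At a signal of 30, 33.3% of subunit genes, 4.17% of duplicates and 28.3% of protein-coding genes qualify, and at 100 the 2.27% of members lie below the 4.09% of protein-coding genes.

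Where members had a peak, its signal was moderate. The strongest peaks of the 12 members had a median pooled signal of 61.7 (interquartile range 52.8 to 81.9), against 79.6 (62.5 to 111.4) over the 1843 protein-coding genes with a peak, and 8 of the 12 lay below 79.6. ND-42, SdhC and ND-51 ranked 1639, 1653 and 1654 of 1664, so a slightly shorter list would have lost them. Of the 12 peaks, 4 were above the median of all reproducible peaks, those at ND-ASHI, ND-MWFE, COX7AL2 and ND-B22.

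The replicates gave each peak a value of its own. All 12 had a summit within 200 bp in both replicate lists, against 1590 of all 1664 reproducible peaks, and no replicate summit lay farther than 171 bp from the pooled one. Signal was higher in replicate 2 at 6 of the 12. The median log2 ratio of replicate 2 to replicate 1 was 0.03 at the 12 peaks and 0.05 over all matched peaks, where the SD was 0.88. Within 1 SD of that median lay 10 of the 12. COX7AL2 was above it, with a log2 ratio of 1.58, and COX8 below it, with -1.11. Replicates were called separately on a scale that is not stated, so these ratios describe the lists and carry no error at a single peak.

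**Figure D3:**
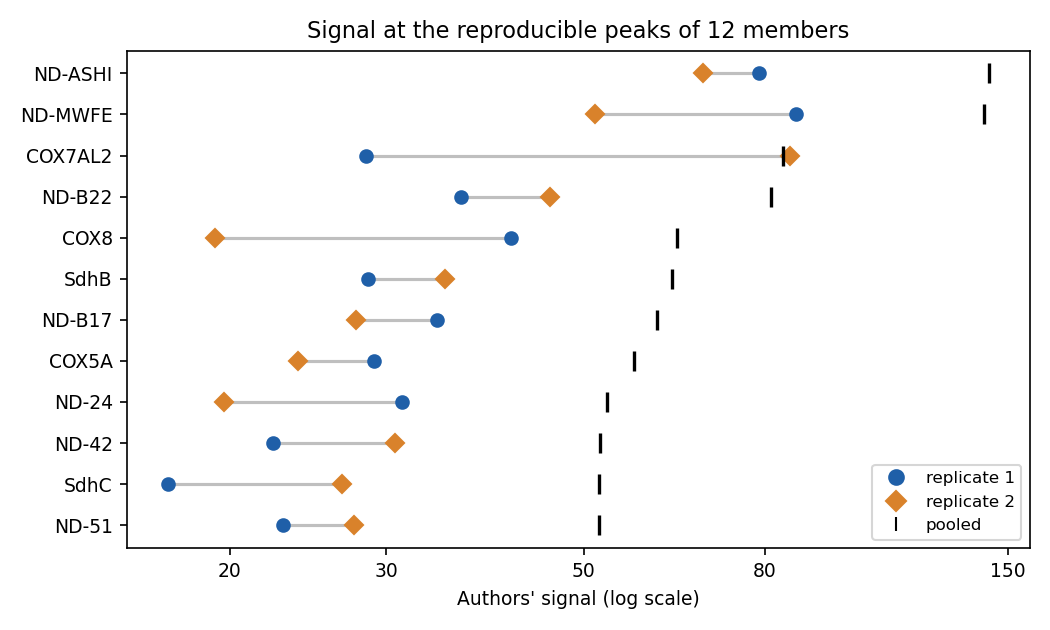
Signal (x axis, log scale) in replicate 1 (circles), replicate 2 (diamonds) and the pooled list (bars) at the reproducible peaks of the 12 members, ordered by pooled signal. ND-ASHI and ND-MWFE stand apart from the rest in replicate 1, and COX7AL2 shows the widest gap, 28.5 against 85.3.

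With a single replicate the members' count changed. Among the 1664 strongest regions of replicate 1, 12 members had one (13.6%, against 14.2% of protein-coding genes), and among those of replicate 2, 6 members (6.82%, against 11.8%). ND-ASHI, ND-MWFE, ND-B22, SdhB and COX7AL2 were in both. COX5A, COX8, ND-24, ND-B17, ND-SGDH, SdhA and UQCR-Q were in replicate 1 alone, and ND-15, a long gene of 41305 bp, in replicate 2 alone. ND-42, ND-51 and SdhC, which had the 3 weakest peaks of the 12 members, were in neither.

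Summits at members lay mostly upstream of starts, and many of those starts were shared. Of the 12 peaks, 8 had their summit within 500 bp upstream of an own start and 1, at ND-24, lay 10 bp downstream. At COX5A the summit stood 12 bp upstream, at COX8 68 bp, at ND-51 90 bp and at ND-B17 107 bp, and for these the own start was the nearest. At the other 4 promoter peaks the start of a gene on the opposite strand was nearer. The ND-ASHI summit lay between its nearest own start, 290 bp away, and a start of Fum1, 232 bp away, within an intron of a longer Fum1 transcript. Fum1 encodes fumarase of the citric acid cycle. The ND-42 summit lay 325 bp upstream of its start and 70 bp from a start of Cchl, which encodes cytochrome c heme lyase. The summit counted for SdhC was 331 bp from its start and 67 bp from that of Tctp, the translationally controlled tumour protein. That counted for ND-MWFE was 230 bp from its start and 9 bp from a start of TppII, a peptidase. These 4 peaks cannot be given to 1 gene of each pair. The peaks at COX5A, COX8, ND-24 and ND-51 also lay in the body or 1 kb of another gene. A nearer own start does not assign those peaks to the member alone.

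At 2 members the peak lay beyond the far end of the gene. The summit counted for SdhB stood 2198 bp downstream of its start and 58 bp from that of CG15237, and the summit counted for ND-B22 stood 1872 bp downstream of its start and 50 bp from that of CG31855. Together, the start of another gene was nearest at 6 of the 12 peaks. COX7AL2 and ND-B17 were the 2 members whose peak lay in no other gene's territory.

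**Figure D4:**
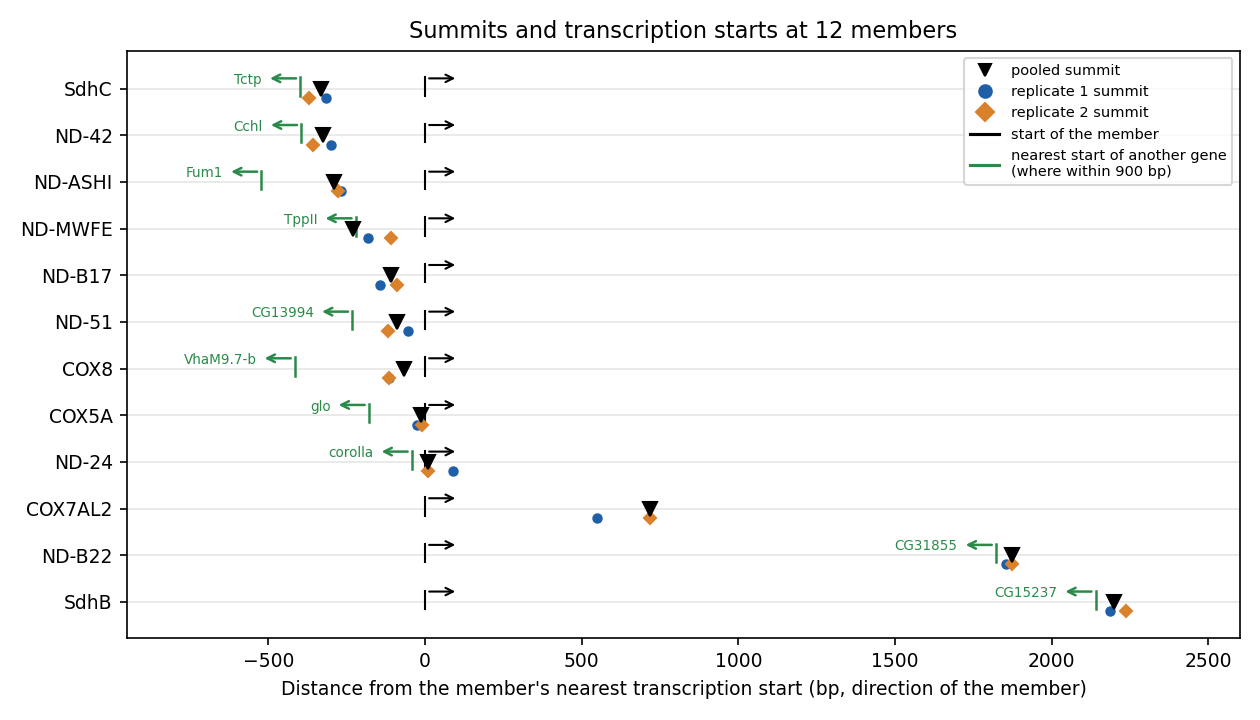
Position of the pooled and replicate summits relative to the nearest start of each of the 12 members (x axis, bp, direction of the member), with the nearest start of another protein-coding gene in green. The 4 uppermost members share the interval with a neighbour whose start is nearer to the summit, and the summits at ND-B22 and SdhB lie 1872 and 2198 bp downstream, beside CG31855 and CG15237.

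Head-to-head arrangement was common among members. A start of another protein-coding gene on the opposite strand lay within 500 bp upstream for 39 of 88 members, or 44.3%, against 27.4% of protein-coding genes. Of these 39, 8 had a peak within 500 bp of an own start (20.5%, against 17.6% of protein-coding genes so arranged). Of the other 49 members, ND-B17 alone had one (2.04%, against 4.98%). This split was chosen after seeing the data and was not tested. Other members with close neighbours had no reproducible peak, among them ND-B16.6, opposite the citrate synthase gene kdn, ATPsynD, opposite mRpL55, and ND-15, opposite Pus10.

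Promoters of members were searched for 7 motifs, and some were in a larger share of subunit promoters than of all promoters, without a test. The window ran from 250 bases before to 50 after the start of 1 transcript per gene, and both strands were searched. GGTCACAC, the core of Ohler motif 1, a core promoter element of broadly active genes, was in 17 of 88 member promoters (19.3%) against 7.54% of all. It was in 16 of 63 subunit promoters (25.4%) and 1 of 24 duplicate promoters (4.17%). CAGCTG was in 23 members (26.1%) against 17.9%, of which 21 were subunits. TATCGATA was in 8 members (9.09%) against 8.94%, all of them subunits. TATAAA was in 44 of 88 members against 45.3%, CACGTG in 4 (4.55%) against 4.26%, and GAGAG in 21 (23.9%) against 30.2%. The NRG element, a palindromic pattern named for nuclear respiratory genes, was in 0 of 88 against 0.868%, in the spelling searched. No searched word contains another, and a match is a description of the letters only.

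**Figure D5:**
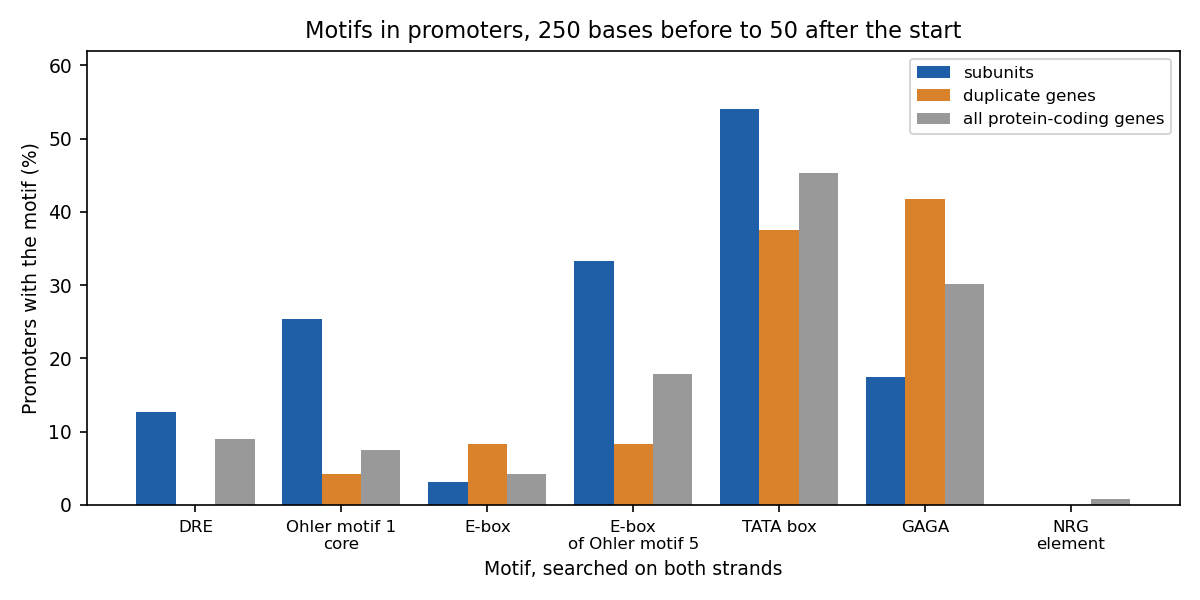
Share of promoters (y axis, %) with each motif for subunit genes, duplicate genes and all protein-coding genes. The core of Ohler motif 1 is in 25.4% of subunit promoters, 4.17% of duplicate promoters and 7.54% of all.

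Among the 9 members with a peak at their own promoter, GGTCACAC was in 3 (COX5A, ND-B17 and ND-MWFE), against 9.86% of the 1177 protein-coding genes with such a peak. CAGCTG was in ND-42, ND-51 and ND-B17, against 25.8%, and TATAAA in 7 of 9 against 41.6%. GAGAG was in 1 of the 9, COX5A, against 32.7%. TATCGATA, CACGTG and the NRG element were in none of the 9 windows, against 11.9%, 5.44% and 0.765%. The DRE printed above in the SdhC stretch lies farther upstream of SdhC than this window reaches. It lies by a summit nearer to the start of Tctp. Median GC content was 36.0% in these 9 promoters, 34.7% in all member promoters and 38.0% in those of protein-coding genes.

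Peaks were also counted at 5 lists of related mitochondrial genes. These were subunits and cytochrome c under other symbols, assembly and ubiquinone supply, the citric acid cycle, the mitochondrial genome and its control, and carriers. Over these lists 15 of 63 genes had a peak (23.8%), beside 13.2% of protein-coding genes, and no test was made. Of 10 genes for subunits or cytochrome c under other symbols 3 had one. The gene blw, which encodes the alpha subunit of the ATP synthase, had a peak 91 bp upstream of its start (118.8 pooled, 54.9 in replicate 1 and 66.4 in replicate 2) and a second of 303.7, 3836 bp downstream of its start, in intergenic sequence and nearer to the start of CycB. The peak counted for levy, a subunit of complex IV, had 78.9 and lay nearest to wmd, and that counted for Cyt-c-d, a cytochrome c gene of the male germline, had 127.7 and lay nearest to CG31808. The peak at the blw start was the only promoter peak found at a gene for a complex V subunit among members and these lists.

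Of 13 genes for assembly and ubiquinone supply 5 had a peak. CIA30, a complex I assembly factor, had 287.9, 107 bp upstream of its start. Also with a peak were ECSIT (52.5), Coa8 (77.4, nearest to CG14818) and Coq3, a methyltransferase of ubiquinone synthesis (62.7). At qless, which makes the ubiquinone side chain, the peak (52.0) lay in an intron, 4419 bp downstream of its start. Of 16 genes of the citric acid cycle 2 had one, Fum1 by the peak shared with ND-ASHI and mAcon1, the aconitase gene (83.6, nearest to CG43345). Of 16 genes for the mitochondrial genome and its control 4 had one. They were Lon, a matrix protease (225.0, 72 bp upstream), mtSSB (68.6), PolG2 (56.2, as near to GatC) and Myc (61.1). The Myc peak lay in an intron, 8723 bp downstream of its start. Of 8 carrier genes Mpc1, of the pyruvate carrier, had one (62.4, nearest to CG42613).

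Ribosomal protein genes were counted in the same way. A peak was found at 12 of 88 members, at 14 of 73 genes for mitochondrial ribosomal proteins (19.2%) and at 32 of 92 for cytosolic ones (34.8%). The median strongest pooled signal among genes with a pooled region was 23.7 at members, 27.0 at mitochondrial and 44.9 at cytosolic ribosomal genes, and 27.1 over all protein-coding genes. The differences between these families were not tested.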

How the data were processed

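Regions on dm6 were used from 4 deposited lists: 1664 reproducible, 21376 pooled and 30000 for each replicate. Per the deposited description files, each replicate was set against a control and the reproducible list was made by the irreproducible discovery rate method from the other lists. Aligner, peak caller, thresholds and read depth are not given in the sources used here. Fragments of 200 to 800 bp were sonicated, per the labels. The deposited signal is the authors' score of a region and was used for ranking and description. Also deposited were −log10 q-values, which end at a ceiling of 3.38 in the pooled list and were not used. The deposited dm3 lists were not used either, since no dm3 annotation was at hand. The 4 regions of replicate 1 on Y were left out.

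Genes, starts and untranslated regions came from Ensembl release 115 for 6 chromosome arms, in dm6 coordinates, and positions are 1-based. Replicate summits were matched within 200 bp. Promoter windows were read from the genome assembly around the canonical transcript's start. Complex, module and duplicate status were assigned by hand from textbook knowledge. Of 63 pathway genes all were matched, 3 through another spelling. Named genes were every member with a reproducible peak, the 10 strongest members without one, pathway genes with a peak and nearest neighbours of members' peaks; other genes were named after their values were seen. Members, lists and comparisons were chosen with earlier results of these data known. With 1 group and no contrast, no test was made, and counts stand beside the share over all protein-coding genes. Counting was checked on planted regions. Python 3.11.15 was used. Alternatives were other flanks, promoter widths, assignments, lists and matching rules.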

Additional observations from a re-analysis of the deposited data

How the results depend on the processing

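Members with a reproducible peak numbered 12. They were 10 with a flank of 500 bp (11.6% of protein-coding genes), 14 with 2 kb (16.2%) and 12 with any overlap of the interval. The count was 3 without a flank (5.41% of protein-coding genes), 4 with peaks above the median signal (7.45%) and 58 with the whole pooled list. It was 7 when the member's start had to be the nearest to a summit, without a limit of 1 kb (9.38%). These were 6 of the 12 members and COX7C, whose peak lay 1829 bp upstream. Leaving out 1 replicate in turn gave 6 to 12. Leaving out symbols that end in L, or Sdhaf3, the only assembly factor, left 12, and leaving out all duplicates, chosen after seeing the data, left 11.

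Members with a peak at their own promoter numbered 9. They were 10 with promoters of 1 kb (9.9% of protein-coding genes) and 5 with 200 bp (5.76%). With peaks above the median signal they were 2, and 2 to 7 when 1 replicate was left out in turn. For peaks above the median and for single replicates no share over all protein-coding genes was counted. Those falls cannot be read against a background. The median signal of 61.7 was 58.8 with a flank of 500 bp and 57.0 with own-promoter peaks alone. At the matched summits of single replicates, which are scored on their own, it was 29.2 to 30.2. All 12 peaks were matched in both replicates within 200 bp, 10 within 100 bp and 11 with 50% reciprocal overlap. GGTCACAC was in 17 of 88 member promoters, and in 11 on the strand of the gene alone (5.46% of all promoters). Within 100 bases before to 50 after the start it was in 13 (6.38% of all). In that shorter window TATCGATA was in 3 of 88 member promoters (7.29% of all) and CACGTG in 1 (2.46%). CAGCTG was in 18 (12.1%), TATAAA in 19 (23.7%) and GAGAG in 12 (18.3%). In the longer window these 5 words were in 8, 4, 23, 44 and 21 member promoters. The causes were not tested. No paired analysis was possible because there was 1 group. Read depth is unknown, so a member without a region may lie below the detection of these lists.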

Other observations

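Beyond the 1 kb on either side of a gene, 4 further reproducible peaks lay nearest to the start of a member. COX7AL2 had 3 of them in intergenic sequence, 1498, 2478 and 3376 bp upstream of its start, with pooled signals of 78.5, 68.1 and 80.2. With the intronic peak this made 4 peaks for which COX7AL2 had the nearest protein-coding start, the most of any member. In replicate 1 the peaks at 1498 and 3376 bp had 58.3 and 47.5, and in replicate 2 26.9 and 23.5, so the order of the replicates was the opposite of that at the intronic peak. The peak at 2478 bp had 53.0 in replicate 2 and no summit within 200 bp in replicate 1. The fourth peak, with 55.6, lay 1829 bp upstream of COX7C, in an intron of oys, with 23.5 in replicate 1 and 34.3 in replicate 2.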
